A study of Mus musculus with 10 samples.

Results

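NF-kappaB is a family of transcription factors that microglia, the resident immune cells of the brain, use to switch on inflammatory genes. The genes described here are its 5 subunits (Nfkb1, Nfkb2, Rel, Rela and Relb) and 5 members of the IkappaB family of inhibitors and their nuclear relatives (Nfkbia, Nfkbib, Nfkbid, Nfkbie and Nfkbiz). All 10 were found by symbol in a deposited table of 37447 genes, and all 10 passed the filter on low values in each comparison. The study took microglia from mouse brainstem at 6 weeks of age by laser capture or by flow sorting and sequenced their RNA. LCM_GFP (n = 4) holds GFP-positive microglia cut by laser out of fixed, frozen sections. FACS_GFP (n = 3) holds GFP-positive microglia that were flow sorted after dissociation and a Percoll gradient. FACS_WT (n = 3) holds wild-type C57BL/6 microglia that went through the same sorting protocol. Sorted pellets were extracted with TRIzol and laser-captured material with proteinase K and acid phenol, so isolation method, fixation and extraction cannot be told apart. The labels name neither the promoter that drives GFP nor the strain of the GFP mice. They give LCM_GFP as 3 female and 1 male, FACS_GFP as 2 female and 1 male, and FACS_WT as 3 male libraries, and they call each library a biological replicate.

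In resting cells, NF-kappaB dimers are held in the cytoplasm by IkappaB proteins. Signals from Toll-like receptors, TNF receptors or the IL-1 receptor activate the IkappaB kinases, which mark the inhibitor for destruction and release the dimer into the nucleus. Among the genes it then switches on is Nfkbia, so the pathway builds its own brake. Nfkb1 and Nfkb2 encode precursors that are cut to the DNA-binding subunits p50 and p52, and Rel, Rela and Relb carry the domains that activate transcription. Nfkbid and Nfkbiz encode nuclear IkappaB proteins that act on NF-kappaB at target genes.

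Several genes of the family are themselves known targets of NF-kappaB, and stretches of their promoters are given for that reason. RefSeq promoter windows on GRCm38.p6, each 250 bases before and 50 bases after a start site, were found for 7 of the 10 genes. Nfkb1, Relb and Nfkbiz had none in that table. On either strand, the kappaB consensus was found in at least 1 window of 5 of the 7 genes, and 5.14% of all 27025 genes there had it in a window. Some of the 7 genes have several windows, and a pair of those of Nfkb2 overlap and share a match. Overlapping matches were merged, and capitals mark the consensus matches. Such a match is a description of the letters only. The windows are of Rel, Nfkb2, Nfkbia, Nfkbid and Nfkbie, 1 for each gene.
Rel, chr11:23770920-23771219, minus strand: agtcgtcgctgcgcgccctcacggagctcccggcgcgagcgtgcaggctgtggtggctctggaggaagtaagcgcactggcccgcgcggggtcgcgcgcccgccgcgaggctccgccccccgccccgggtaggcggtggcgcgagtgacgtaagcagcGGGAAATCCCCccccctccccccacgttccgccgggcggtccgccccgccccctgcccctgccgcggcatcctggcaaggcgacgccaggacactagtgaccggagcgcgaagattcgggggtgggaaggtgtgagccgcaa
Nfkb2, chr19:46304487-46304786, plus strand: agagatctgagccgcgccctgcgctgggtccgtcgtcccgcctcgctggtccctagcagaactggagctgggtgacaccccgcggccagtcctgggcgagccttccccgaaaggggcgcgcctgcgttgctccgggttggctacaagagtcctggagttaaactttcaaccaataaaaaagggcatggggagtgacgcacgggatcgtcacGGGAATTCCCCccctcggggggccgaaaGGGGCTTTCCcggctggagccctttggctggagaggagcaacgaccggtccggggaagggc
Nfkbia, chr12:55492598-55492897, minus strand: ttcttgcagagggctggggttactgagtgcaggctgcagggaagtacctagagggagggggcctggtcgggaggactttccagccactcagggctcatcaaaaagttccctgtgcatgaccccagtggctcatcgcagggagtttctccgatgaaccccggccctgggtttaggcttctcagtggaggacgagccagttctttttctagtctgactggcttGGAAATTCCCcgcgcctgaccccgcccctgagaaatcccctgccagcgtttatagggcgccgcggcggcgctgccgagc
Nfkbid, chr7:30422156-30422455, plus strand: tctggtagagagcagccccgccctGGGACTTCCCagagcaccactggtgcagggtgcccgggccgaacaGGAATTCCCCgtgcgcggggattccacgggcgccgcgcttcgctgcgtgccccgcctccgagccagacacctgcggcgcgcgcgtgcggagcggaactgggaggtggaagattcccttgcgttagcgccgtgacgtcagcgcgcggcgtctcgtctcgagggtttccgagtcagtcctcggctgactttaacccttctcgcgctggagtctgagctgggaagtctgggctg
Nfkbie, chr17:45555450-45555749, plus strand: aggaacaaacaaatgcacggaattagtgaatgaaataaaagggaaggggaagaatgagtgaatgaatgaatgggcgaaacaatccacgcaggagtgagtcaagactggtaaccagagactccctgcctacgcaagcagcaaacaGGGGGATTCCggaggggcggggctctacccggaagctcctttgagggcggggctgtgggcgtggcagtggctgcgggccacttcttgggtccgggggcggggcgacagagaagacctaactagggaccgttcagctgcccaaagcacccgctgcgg
The match in Rel began 92 bases before the start site. Those of Nfkb2 began 39 and 11 bases before it, that of Nfkbia 29, those of Nfkbid 226 and 181, and that of Nfkbie 106. No match was found in the windows of Rela and Nfkbib. All coordinates from here on are mm9, as in the deposited table.

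Values are FPKM as deposited, and each log2 change was computed from log2(FPKM + 1), which understates the change of low genes. A gene is said to have risen or fallen where limma's moderated test, two-sided and with Benjamini-Hochberg adjustment over all genes tested, gave an adjusted p under 0.05. Across genes, Pearson correlations between replicates were 0.622 to 0.739 in LCM_GFP, 0.970 to 0.972 in FACS_GFP and 0.966 to 0.978 in FACS_WT. The p-values measure the spread between these libraries. Reads were not recovered from the FPKM values, so depth and counting error are unknown. A list of 22 microglial markers summed to 3090 to 7264 FPKM in LCM_GFP, 10970 to 13532 in FACS_GFP and 12825 to 16539 in FACS_WT, and none of the 22 was at 0 in a library. Markers of other cells were also present in LCM_GFP. Oligodendrocyte markers summed to 2682 to 7567 FPKM there, against 21.2 to 26.5 in FACS_GFP and 23.5 to 32.8 in FACS_WT. Neuron markers summed to 954 to 2168 FPKM in LCM_GFP, against 3.28 to 11.6 in FACS_GFP and 1.83 to 2.73 in FACS_WT. LCM_GFP libraries 1 and 3 stood apart in Hbb-y, an embryonic globin, at 902 and 439 FPKM, against 0.102 and 0.0666 in libraries 2 and 4. The Y chromosome gene Uty was at 15.6 FPKM in library 1 and 0.286 FPKM in library 3, though both libraries are labelled female. In these libraries Kdm5d was at 3.26 and 5.96 FPKM, Ddx3y at 0.198 and 0 FPKM and Eif2s3y at 2.25 and 0 FPKM. Xist was at 14.0 and 32.8 FPKM in them. FACS_GFP library 2, labelled male, had Xist at 3.91 FPKM, against 8.22 and 9.05 FPKM in the female FACS_GFP libraries. Library 2 of FACS_GFP also had Uty at 28.5, Kdm5d at 23.0, Eif2s3y at 56.9 and Ddx3y at 7.55 FPKM.

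The comparison of laser-captured with sorted GFP microglia asks how the isolation method bears on the RNA found. Of the 10 genes, 5 fell in laser-captured GFP microglia relative to sorted GFP microglia: the subunits Nfkb2 and Rel and the IkappaB family genes Nfkbid, Nfkbie and Nfkbiz. None rose. Of all 13403 genes tested, 19.6% fell by the same rule. The median log2 change was -1.81 over the 10 genes and -0.60 over all genes. Nfkb2, Relb, Nfkbid and Nfkbiz reached 1 FPKM in fewer than 3 laser-captured libraries, so these 4 passed the filter on low values only with the sorted libraries. The inhibitor Nfkbib stood outside this pattern, with a log2 change of -0.04. All 5 calls ended when any 1 of the FACS_GFP libraries was left out, and the share of all genes called was then 8.21% to 8.57%, against 32.1% with all libraries. The log2 changes moved little then, to -1.936 to -1.975 for Nfkb2, -2.474 to -2.576 for Rel and -1.766 to -1.949 for Nfkbid. They were -1.726 to -1.805 for Nfkbie and -2.864 to -3.045 for Nfkbiz. The fit took 1 variance per gene over both groups, so its p-values also depend on how many of the tighter sorted libraries enter. In bulk libraries, fewer microglia and less RNA per cell cannot be told apart, and the microglial markers also fell, with a median log2 change of -1.58 and 15 of 22 called. A list of 12 immediate early genes, which respond within minutes to stimulation or handling, summed to 84.2 to 135 FPKM in LCM_GFP, against 1681 to 2377 FPKM in FACS_GFP and 1765 to 3040 FPKM in FACS_WT. The parts of these genes and of the markers of other cells in the family's changes were not tested.

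**Figure D1:**
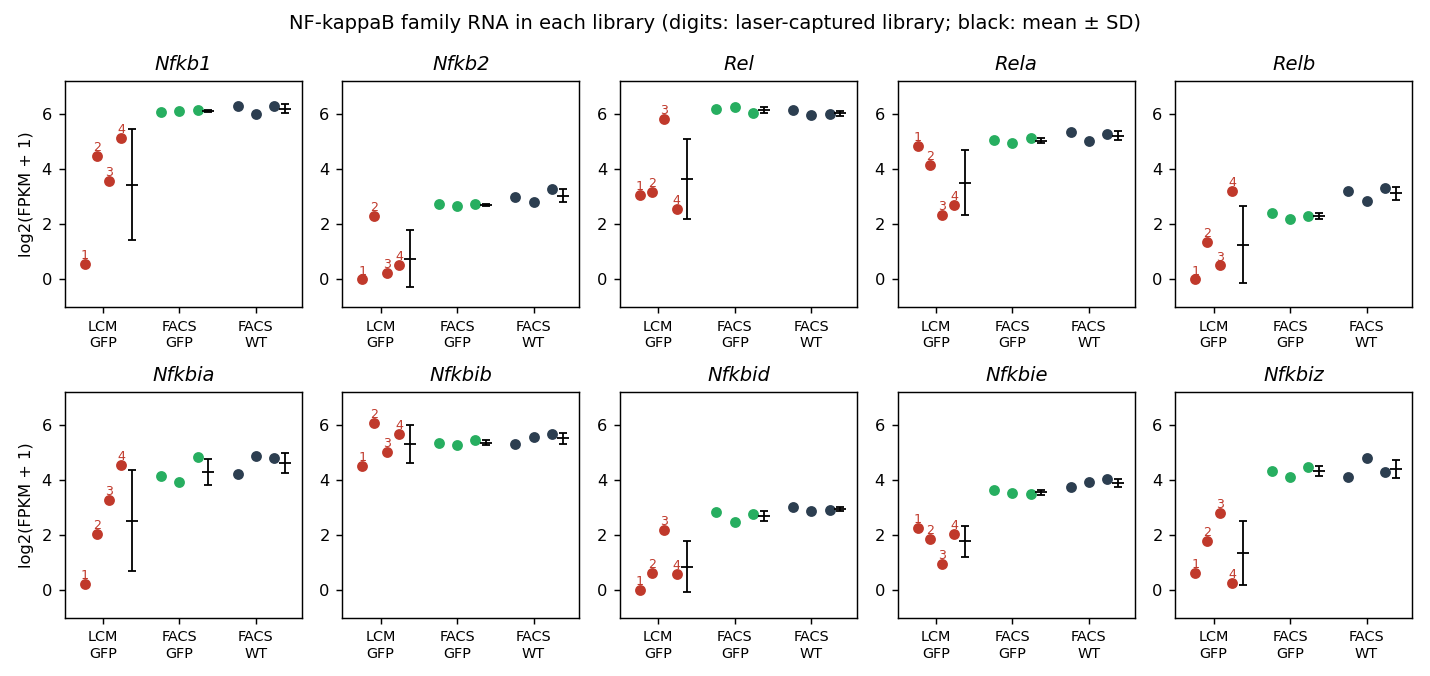
Level of each of the 10 genes in each library, as log2(FPKM + 1), with LCM_GFP in red, FACS_GFP in green and FACS_WT in dark blue; black bars are the mean ± SD of each group. LCM_GFP libraries scatter widely and lie below both sorted groups for 7 of the 10 genes, while the 3 groups overlap for Nfkbib.

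Rel encodes c-Rel, a subunit used mostly by blood and immune cells (ENSMUSG00000020275, chr11:23641514-23670970, minus strand). It was at 7.33, 7.93, 55.0 and 4.88 FPKM in LCM_GFP libraries 1 to 4, against 72.6, 74.6 and 64.6 FPKM in FACS_GFP and 69.3, 60.9 and 62.5 FPKM in FACS_WT. Every laser-captured value lay below every sorted value, and library 3 came close to the sorted level. The log2 change was -2.51 ± 0.76 (SE) relative to FACS_GFP, with a limma adjusted p of 0.0373. The call ended without LCM_GFP library 1, 2 or 4 (adjusted p = 0.0618, 0.0716 and 0.0746). Rel was the most abundant family member in FACS_GFP by mean FPKM and the second in FACS_WT.

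Nfkb1, the source of p50 (ENSMUSG00000028163, chr3:135247619-135354511, minus strand), was as abundant as Rel in sorted cells. It was at 0.494, 21.2, 10.8 and 34.2 FPKM in LCM_GFP, against 66.7, 67.5 and 70.1 FPKM in FACS_GFP and 77.8, 63.5 and 76.6 FPKM in FACS_WT. The groups did not overlap, but the laser-captured libraries differed 69.2-fold among themselves. The log2 change of -2.67 ± 0.99 relative to FACS_GFP missed the threshold (limma adjusted p = 0.0719). It passed without LCM_GFP library 1 (adjusted p = 0.0198, log2 change -1.72) and without library 4 (0.0454 and -3.24).

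Rela encodes p65, the main activating subunit of the canonical pathway (ENSMUSG00000024927, chr19:5637483-5648130, plus strand). Its levels were 27.8, 16.7, 4.07 and 5.59 FPKM in LCM_GFP, against 32.4, 29.6 and 33.9 FPKM in FACS_GFP and 39.3, 31.5 and 38.01 FPKM in FACS_WT. Laser-captured library 1, the lowest of its group for Nfkb1 and Nfkbia, was the highest for Rela and lay just below the lowest sorted GFP library. The groups did not overlap. The log2 change relative to FACS_GFP was -1.53 ± 0.65, with a limma adjusted p of 0.106, and without library 1 it was -1.97 with an adjusted p of 0.0232.

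Nfkb2 and Relb serve the non-canonical pathway, in which p100 is cut to p52. Nfkb2 (ENSMUSG00000025225, chr19:46379227-46386580, plus strand) overlaps Psd on the other strand by 4 bases. It was at 0, 3.90, 0.167 and 0.430 FPKM in LCM_GFP, against 5.61, 5.33 and 5.68 FPKM in FACS_GFP and 7.001, 6.10 and 8.75 FPKM in FACS_WT. All laser-captured values were below all sorted values, with library 2 far above the other laser-captured libraries. Nfkb2 fell by 1.95 ± 0.58 on the log2 scale relative to FACS_GFP (limma adjusted p = 0.0364). The call ended without LCM_GFP library 1, 3 or 4 (adjusted p = 0.0543, 0.0671 and 0.0663).

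Relb (ENSMUSG00000002983, chr7:20191566-20214787, minus strand) was at 0, 1.56, 0.422 and 8.24 FPKM in LCM_GFP, against 4.37, 3.55 and 3.96 FPKM in FACS_GFP and 8.30, 6.21 and 8.86 FPKM in FACS_WT. Laser-captured library 4 lay above every FACS_GFP library and inside the range of FACS_WT, so the groups overlapped. The log2 change relative to FACS_GFP was -1.04 ± 0.74 (limma adjusted p = 0.308). Without library 4 it was -1.69, with an adjusted p of 0.0195.

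Nfkbia encodes IkappaB-alpha, the inhibitor that NF-kappaB itself induces (ENSMUSG00000021025, chr12:56590398-56593634, minus strand). It was at 0.169, 3.16, 8.59 and 22.1 FPKM in LCM_GFP, against 16.6, 14.3 and 27.5 FPKM in FACS_GFP and 17.4, 28.3 and 26.8 FPKM in FACS_WT. Library 4 lay inside the range of both sorted groups and the other 3 laser-captured libraries lay below them. The log2 change relative to FACS_GFP was -1.78 ± 0.95 (limma adjusted p = 0.181). Among the 10 genes, Nfkbia had the largest spread between sorted libraries, with an SD of 0.470 in FACS_GFP and 0.366 in FACS_WT on the log2 scale.

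Nfkbib encodes IkappaB-beta, which binds the same dimers as IkappaB-alpha (ENSMUSG00000030595, chr7:29543270-29552531, minus strand). It was at 21.8, 66.5, 31.7 and 49.7 FPKM in LCM_GFP, against 39.1, 37.95 and 43.1 FPKM in FACS_GFP and 38.6, 45.6 and 50.2 FPKM in FACS_WT. Laser-captured libraries lay on both sides of the sorted ones. The log2 change was -0.04 relative to FACS_GFP, with a 95% interval of -1.05 to 0.98 (limma adjusted p = 0.957), and 0.50, 0.21 and 1.60 under 3 other scalings of the libraries. The locus overlaps Sirt2 on the other strand by 778 bases, and the sources used here do not state whether reads were counted by strand. Sirt2 itself averaged 680 ± 114 FPKM in LCM_GFP and 393 ± 13.9 FPKM in FACS_GFP (SD, n = 4 and 3), and its part in the Nfkbib value was not tested.

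Nfkbie encodes IkappaB-epsilon (ENSMUSG00000023947, chr17:45692665-45700118, plus strand). It was at 3.72, 2.62, 0.951 and 3.14 FPKM in LCM_GFP, against 11.4, 10.5 and 10.1 FPKM in FACS_GFP and 12.4, 14.2 and 15.4 FPKM in FACS_WT. The groups did not overlap, and the laser-captured libraries had an SD of 0.564 on the log2(FPKM + 1) scale. It fell by 1.77 ± 0.47 relative to FACS_GFP (limma adjusted p = 0.0231), also without any 1 of the LCM_GFP libraries.

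Nfkbiz encodes IkappaB-zeta, a nuclear member needed in mouse macrophages for a set of late inflammatory genes (ENSMUSG00000035356, chr16:55811488-55839012, minus strand). It was at 0.524, 2.42, 5.91 and 0.194 FPKM in LCM_GFP, against 19.03, 16.3 and 21.3 FPKM in FACS_GFP and 16.4, 26.5 and 18.7 FPKM in FACS_WT. Even the highest laser-captured library lay below the lowest sorted one. It fell by 2.95 ± 0.66 on the log2 scale relative to FACS_GFP (limma adjusted p = 0.0126). That was the lowest of the 10 changes with the added 1 FPKM, but with a pseudocount of 5 FPKM Nfkbiz stood at -1.78, against -2.11 for Rel and -2.08 for Nfkb1. It was called under 15 of 19 other settings of the test.

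Nfkbid encodes IkappaBNS, a nuclear relative (ENSMUSG00000036931, chr7:31206751-31213765, plus strand). It was at 0.0131, 0.543, 3.59 and 0.490 FPKM in LCM_GFP, against 6.21, 4.60 and 5.76 FPKM in FACS_GFP and 7.06, 6.40 and 6.56 FPKM in FACS_WT. As for Rel and Nfkbiz, laser-captured library 3 was the highest of its group and still below the sorted libraries. Nfkbid fell by 1.84 ± 0.55 relative to FACS_GFP (limma adjusted p = 0.0365), and the call ended without LCM_GFP library 2 or 4 (adjusted p = 0.0593 and 0.0650).

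In all, 7 of the 10 genes were lower in every LCM_GFP library than in every FACS_GFP library, against 31.2% of all genes tested. The exceptions were Relb, Nfkbia and Nfkbib. Nfkb2, Nfkbid and Nfkbiz, which are among the 7, passed the filter on low values only with the sorted libraries. The filter thus in part sets this count. In the authors' deposited table none of the 10 was significant in this comparison, and the lowest q-value was 0.271, for Rel. That table gave a lower level in LCM_GFP for all 10.

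Relative to sorted wild-type microglia, the same 5 genes were called lower in laser-captured GFP microglia, and none rose. This comparison uses the same LCM_GFP libraries, so its values are set beside those above and are not independent of them. Of 13415 genes tested, 19.1% fell. The log2 changes were -2.38 for Rel (limma adjusted p = 0.0442), -2.28 for Nfkb2 (0.0232), -2.12 for Nfkbie (0.0123), -3.05 for Nfkbiz (0.0118) and -2.08 for Nfkbid (0.0245). Nfkb1 at -2.76, Rela at -1.70, Relb at -1.86, Nfkbia at -2.11 and Nfkbib at -0.19 did not pass. Again 7 of the 10 genes had no overlap between the groups, against 29.6% of all genes lower without overlap. The median was -2.12 over the 10 genes and -0.59 over all genes. Here too Nfkb2, Relb, Nfkbid and Nfkbiz passed the filter on low values only with the sorted libraries, so the filter in part sets these counts and this median. All 5 calls ended when any 1 of the FACS_WT libraries was left out. As every FACS_WT library is labelled male, a fit with labelled sex as a covariate sets LCM_GFP library 2 alone against them. It cannot separate sex from group, so its calls are not given. The call of Rel also ended without LCM_GFP library 1, 2 or 4 (adjusted p = 0.0719, 0.0824 and 0.0881). Calls were gained by Nfkb1 without library 1 or 4 (0.0175 and 0.0410), by Rela without library 1 (0.0176), and by Relb and Nfkbia without library 4 (0.0072 and 0.0390). The genotype and the isolation method differ together here and cannot be told apart.

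**Figure D2:**
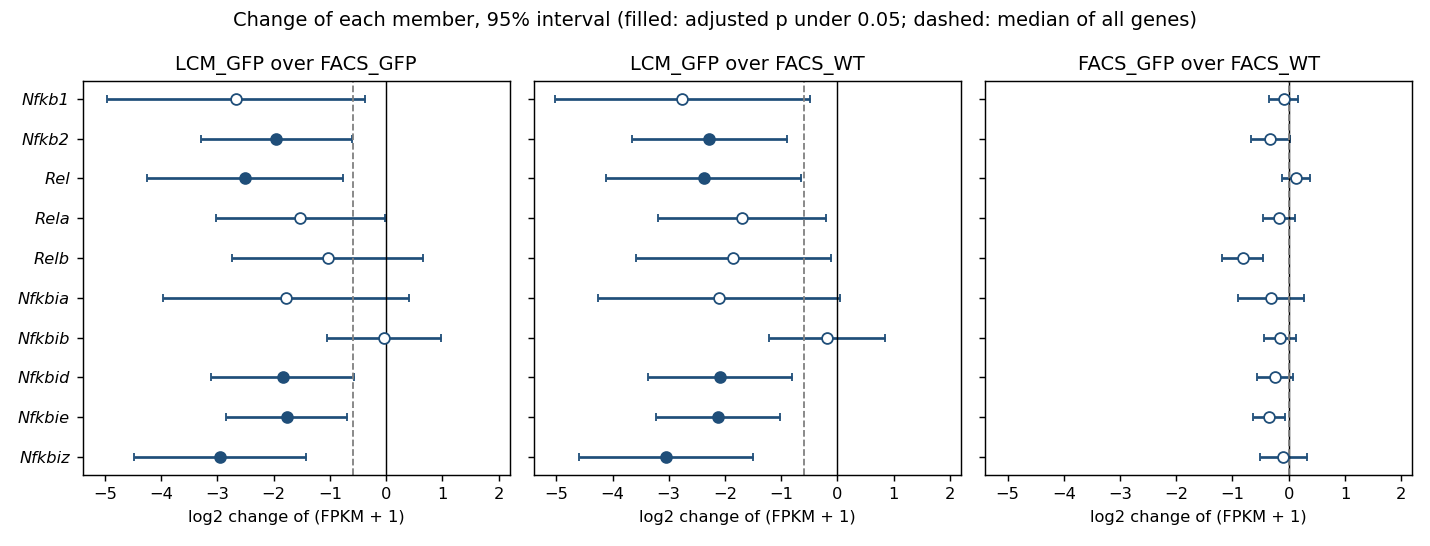
Log2 change of each gene in the 3 comparisons, as points with 95% intervals from limma; filled points have an adjusted p under 0.05 and the dashed line is the median of all genes tested. The same 5 genes are filled in both laser comparisons, and none is filled between the sorted groups.

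With the 2 laser-captured libraries that did not stand apart, 2 and 4, limma called 6 genes lower in each laser comparison: Rel, Rela, Nfkb1, Nfkbie, Nfkbiz and Nfkbid. Of all genes tested with these libraries, 35.4% fell relative to FACS_GFP and 32.8% relative to FACS_WT, against 19.6% and 19.1% with all 4. Nfkb2 lost its call, with a log2 change of -1.31 and an adjusted p of 0.119 relative to FACS_GFP. Nfkbib was then 0.51 relative to FACS_GFP (adjusted p = 0.125).

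The direction of the family depended in part on how libraries were scaled. As deposited, all 10 log2 changes relative to FACS_GFP were below 0. Median ratio scaling gave 9 below 0 and 1 called (Nfkbiz), and quantile normalization also 9 and 1 (Nfkbiz). Of all genes, 10.1% fell with the first and 14.95% with the second, against 19.6% as deposited. When each library was scaled to its own microglial markers, 8 were below 0 and none was called by limma, with Rela at 0.06 and Nfkbib at 1.60. With that scaling 4.02% of all genes fell and 21.5% were called in either direction. The median of all genes moved with the scaling, to -0.14, -0.39 and 0.79 against -0.60 as deposited. Measured from it, the family median was -1.22 as deposited, -1.25 by median ratio, -1.21 by quantile and -1.49 by the microglial scaling. Under each of these 4 scalings, 9 of the 10 genes lay below the median of all genes, Nfkbib being the exception. Nfkb2, Relb, Nfkbid and Nfkbiz passed the filter on low values only with the sorted libraries. The filter thus in part sets this count and the family medians. Relative to FACS_WT these family medians were -1.53, -1.54, -1.51 and -1.60. In that comparison the microglial scaling called 1 gene, Nfkbib, which rose by 1.63 (adjusted p = 0.0495).

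**Figure D3:**
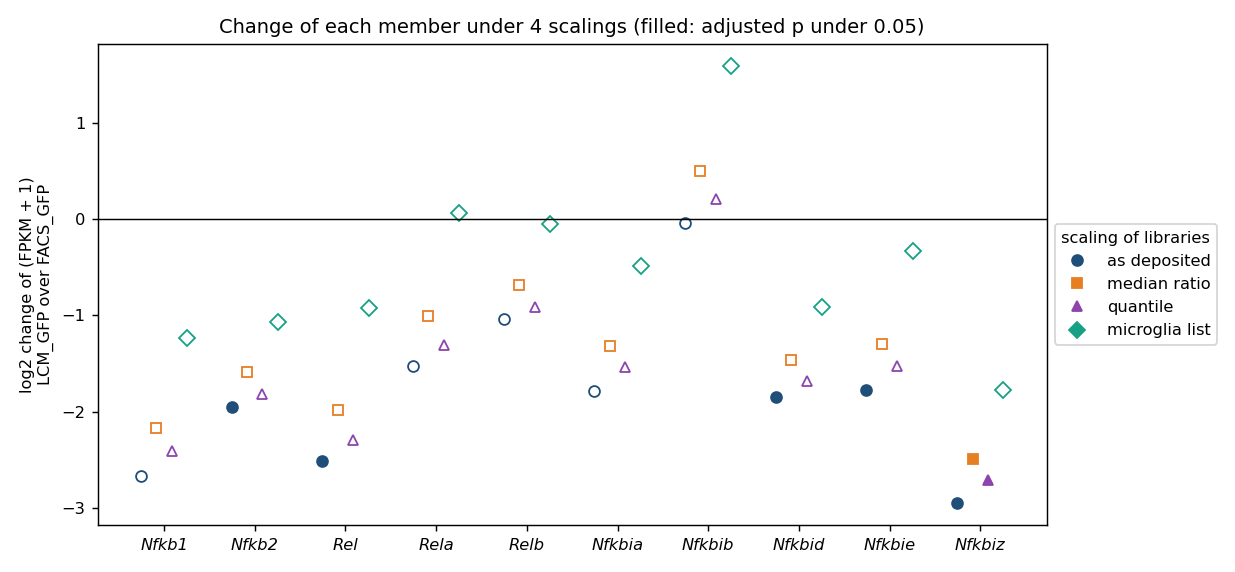
Log2 change of each gene in LCM_GFP over FACS_GFP under 4 scalings of the libraries; filled symbols have an adjusted p under 0.05. The whole family shifts up with the microglial scaling while the order of the genes is much the same, with Nfkbiz the lowest and Nfkbib the highest under each.

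Between the sorted groups the median log2 change, FACS_GFP over FACS_WT, was -0.21 over the 10 genes and 0.0012 over all genes. No gene of the 10 was called in FACS_GFP over FACS_WT by limma, 2 had an unadjusted p under 0.05, and the authors' deposited table listed none as significant. Of all 11814 genes tested, 0.11% were called and 13.1% had an unadjusted p under 0.05. The larger of these 2 was Relb, at 3.96 ± 0.409 FPKM in FACS_GFP and 7.79 ± 1.40 FPKM in FACS_WT (SD, n = 3 each). Its 3 FACS_GFP values all lay below its 3 FACS_WT values, with a log2 change of -0.82 ± 0.16 (SE), an unadjusted p of 0.00078 and a limma adjusted p of 0.162. In the authors' deposited table its q-value was 0.199. The other was Nfkbie, at 10.7 ± 0.669 FPKM in FACS_GFP and 14.0 ± 1.49 FPKM in FACS_WT, with a log2 change of -0.35 and a limma adjusted p of 0.319. Together with Nfkb2 and Nfkbid, 4 of the 10 genes were lower in every FACS_GFP library than in every FACS_WT library, against 9.29% of all genes. The remaining 6 overlapped, and their log2 changes lay between -0.32 and 0.13. Of the 10 changes, 9 were below 0 as deposited, but only 5 with the scaling to microglial markers. The labelled sexes differ between these groups, as FACS_WT is all male and FACS_GFP library 2 is the only male of its group. With sex as a covariate the Relb change of -0.94 is that of library 2 alone against FACS_WT, so it cannot separate sex from group.

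The order of the levels was much alike in the sorted groups. In FACS_GFP the means ran from Rel at 70.6 ± 5.29 FPKM through Nfkb1 at 68.1 ± 1.81, Nfkbib at 40.1 ± 2.72 and Rela at 32.0 ± 2.2 to Relb at the low end (SD, n = 3). Rel and Nfkb1 overlapped, as did Nfkbia and Nfkbiz at 19.5 ± 7.03 and 18.9 ± 2.48 FPKM, and Nfkb2 and Nfkbid at 5.54 ± 0.188 and 5.52 ± 0.834 FPKM. In FACS_WT, Nfkb1 at 72.6 ± 7.92 FPKM stood before Rel at 64.2 ± 4.43 FPKM, again with overlap. There Relb, Nfkb2 and Nfkbid overlapped at the low end, at 7.79 ± 1.40, 7.28 ± 1.35 and 6.68 ± 0.345 FPKM. In LCM_GFP, Nfkbib led with 42.4 ± 19.8 FPKM, before Rel at 18.8 ± 24.2, Nfkb1 at 16.7 ± 14.4 and Rela at 13.5 ± 11.05 FPKM (SD, n = 4). Those 3 subunits did not differ beyond their spread.

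The makeup of the family differed from one laser-captured library to the next. The 10 genes summed to 61.9, 126, 121 and 129 FPKM in LCM_GFP, against 274, 264 and 286 FPKM in FACS_GFP and 294, 289 and 312 FPKM in FACS_WT. Rela was the leading member in laser-captured library 1 with 44.9% of the sum, Nfkbib in libraries 2 and 4 with 52.6% and 38.6%, and Rel in library 3 with 45.4%. In the 6 sorted libraries Rel or Nfkb1 led, with 22.0% to 28.2%. The share of Nfkbib was 26.2% to 52.6% in LCM_GFP and 13.1% to 16.1% in the sorted libraries. Counted at 1 FPKM or more, 4, 9, 7 and 7 of the 10 genes were present in LCM_GFP libraries 1 to 4, against all 10 in each sorted library. The median SD of the 10 genes on the log2 scale was 1.17 in LCM_GFP, against 0.953 over all genes there. In FACS_GFP it was 0.103 against 0.132 over all genes, and in FACS_WT 0.178 against 0.172.

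**Figure D4:**
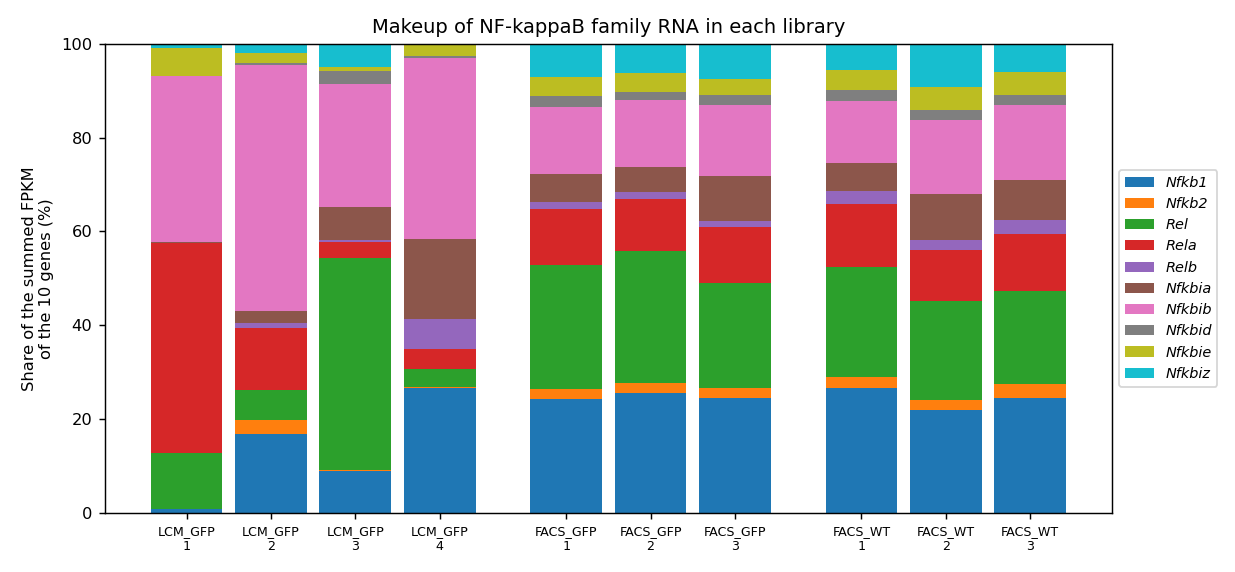
Share of the summed FPKM of the 10 genes taken by each gene, in percent, for each library. The 6 sorted libraries look alike, while Rela, Nfkbib, Rel and Nfkbib lead in LCM_GFP libraries 1 to 4.

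Across the 10 libraries, some members varied together. Pearson's r of log2(FPKM + 1) was 0.964 between Rel and Nfkbid, 0.959 between Nfkbid and Nfkbiz and 0.948 between Rel and Nfkbiz, and all 3 genes peaked in laser-captured library 3 within its group. Nfkb1 and Nfkbia, both highest in library 4 and lowest in library 1 within LCM_GFP, had an r of 0.910. Rela and Nfkbia had an r of 0.124. These values describe 10 libraries that fall into 4 laser-captured and 6 sorted ones, and the libraries of a kind share their isolation, so no p is given.

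By the same measure, over 8630 genes with a mean of at least 5 FPKM, the genes most like Nfkbia were Il13ra1 (r = 0.978), a receptor chain for IL-13, Psma6 (0.978), a proteasome subunit, and Dbnl (0.976), an actin-binding adaptor. Psma6 is the neighbour of Nfkbia on chromosome 12, with 70956 bases and no other gene of the table between them. Psma6 ranged from 3.46 to 32.8 FPKM in LCM_GFP, 40.1 to 55.5 in FACS_GFP and 45.7 to 64.8 in FACS_WT. The genes most like Rela were Cstf1 (r = 0.993), a cleavage stimulation factor of mRNA 3' ends, Alkbh7 (0.993), a mitochondrial protein, and E2f4 (0.992), a cell cycle transcription factor. E2f4 ranged from 11.8 to 40.6 FPKM in LCM_GFP, 41.7 to 44.9 in FACS_GFP and 45.9 to 53.7 in FACS_WT. These lists show likeness over the same 10 libraries and nothing more.

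The balance of inhibitor to subunit was read from the log2 ratio of Nfkbia to Rela within a library, which does not depend on how libraries are scaled apart from the added 1 FPKM. It was -4.62, -2.09, 0.92 and 1.81 in LCM_GFP libraries 1 to 4, against -0.92, -0.998 and -0.29 in FACS_GFP and -1.13, -0.15 and -0.49 in FACS_WT. The laser-captured ratios lay on both sides of the sorted ones. The difference of means was -0.26 for LCM_GFP minus FACS_GFP (exact permutation test, two-sided, p = 1), -0.41 for LCM_GFP minus FACS_WT (p = 0.914) and -0.15 for FACS_GFP minus FACS_WT (p = 0.800). The smallest p these tests allow is 0.0571 for 4 against 3 libraries and 0.1 for 3 against 3, and all 3 adjusted values were 1. A p of this size does not show that the ratios are alike.

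The rest of the pathway was read from 5 lists with 70 genes, of which 69 were in the table (Otulin was not matched). In laser-captured relative to sorted GFP microglia, 28 of the 60 tested genes fell and none rose, against 19.6% of all genes that fell. As in the family itself, most of these calls ended with fewer sorted libraries: without any 1 FACS_GFP library 4 or 5 genes were called, and 8.21% to 8.57% of all genes. Under median ratio scaling 16 were called, 1 of them higher, under quantile normalization 23, 1 of them higher, and under the microglial scaling 7, 1 of them higher. The lists' counts and medians cover tested genes only. Some of these reached 1 FPKM in fewer than 3 laser-captured libraries and so passed the filter only with the sorted ones, where they were higher. They were 3 of the 10 tested receptors and ligands, 6 of 20 adaptors and upstream kinases, 1 of 7 IkappaB kinases, 4 of 10 brakes and 7 of 13 targets.

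Among receptors and ligands, 5 of 10 tested genes fell, with a median log2 change of -1.76. Of the 4 most abundant, Tlr4, the receptor for bacterial lipopolysaccharide, averaged 45.8 ± 37.8 FPKM in LCM_GFP and 182 ± 7.42 FPKM in FACS_GFP and fell by 2.25 ± 0.52 (limma adjusted p = 0.0147). Ltbr, the lymphotoxin beta receptor of the non-canonical pathway, averaged 9.05 ± 3.79 FPKM in LCM_GFP and 51.1 ± 8.19 FPKM in FACS_GFP and fell by 2.44 ± 0.45 (adjusted p = 0.00489). Both were lower in every laser-captured library than in every sorted GFP library. Tnfrsf1b, the second TNF receptor, averaged 11.1 ± 1.37 FPKM in LCM_GFP and 42.6 ± 4.34 FPKM in FACS_GFP and fell by 1.85 ± 0.36 (adjusted p = 0.00639). Under the microglial scaling Tlr4 stood at -0.59, Ltbr at -0.86 and Tnfrsf1b at -0.24, and none of the 10 was called. The first TNF receptor, Tnfrsf1a, at 35.4 ± 28.4 FPKM in LCM_GFP and 90.3 ± 12.8 FPKM in FACS_GFP, did not pass (-1.67, adjusted p = 0.0794). Tlr2 and the cytokine gene Tnf, named after their values were seen, made up the 5. Tnf was at 0, 5.91, 0.0957 and 0 FPKM in LCM_GFP, against 10.3, 11.4 and 13.02 FPKM in FACS_GFP.

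Among adaptors and upstream kinases, 7 of 20 fell, with a median of -1.25. Card9, an adaptor downstream of fungal pattern receptors, averaged 22.0 ± 38.7 FPKM in LCM_GFP and 104 ± 3.17 FPKM in FACS_GFP and fell by 3.93 ± 1.23 (limma adjusted p = 0.0426). The call of Card9 ended with median ratio scaling, quantile normalization and microglial scaling (adjusted p = 0.079, 0.0538 and 0.126). The kinase gene Irak2 and the adaptor gene Tab2 fell by 1.32 ± 0.40 and 1.24 ± 0.30 (adjusted p = 0.0382 and 0.0174), but stood at 0.34 and 0.42 under the microglial scaling. Map3k7, which encodes the kinase TAK1, averaged 101 ± 78.2 FPKM in LCM_GFP and 122 ± 0.752 FPKM in FACS_GFP and did not pass (-0.60, adjusted p = 0.467).

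Of the 7 genes for IkappaB kinases and their partners, 3 fell, with a median of -1.69. The 2 catalytic subunits of the IkappaB kinase complex had different values. Chuk (IKK-alpha) averaged 26.7 ± 19.4 FPKM in LCM_GFP and 81.2 ± 2.50 FPKM in FACS_GFP and fell by 1.86 ± 0.58 (limma adjusted p = 0.0424). Ikbkb (IKK-beta) averaged 58.6 ± 28.0 FPKM in LCM_GFP and 76.1 ± 7.65 FPKM in FACS_GFP and did not pass (-0.49, adjusted p = 0.407). The difference between these changes was not tested. The call of Chuk ended with median ratio scaling, quantile normalization and microglial scaling (adjusted p = 0.143, 0.0663 and 0.857), and under the last Chuk stood at -0.22 and Ikbkb at 1.16. Tbk1, an IKK-related kinase, averaged 8.25 ± 3.06 FPKM in LCM_GFP and 34.5 ± 0.393 FPKM in FACS_GFP and fell by 2.01 ± 0.43 (adjusted p = 0.0104), but stood at -0.43 under the microglial scaling (adjusted p = 0.632). Map3k14, the NIK kinase of the non-canonical pathway, was at 11.7 ± 8.76 FPKM in LCM_GFP and 32.5 ± 3.17 FPKM in FACS_GFP (-1.69, adjusted p = 0.0723).

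Among further brakes on the pathway, 3 of 10 fell, with a median of -0.94. Tnip2, a partner of the ubiquitin-editing enzyme A20, averaged 2.43 ± 2.19 FPKM in LCM_GFP and 25.4 ± 0.982 FPKM in FACS_GFP and fell by 3.22 ± 0.64 (limma adjusted p = 0.00738). Under the microglial scaling Tnip2 stood at -1.96 and its call ended (adjusted p = 0.104). Tnfaip3, which encodes A20 itself, was at 7.79 ± 8.08 FPKM in LCM_GFP and 18.8 ± 1.71 FPKM in FACS_GFP and did not pass (-1.69, adjusted p = 0.136). The deubiquitinase gene Cyld (-1.39) and N4bp1 (-0.28) did not pass either.

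Of the 20 listed target genes of NF-kappaB, 13 were tested and 10 of these fell, with a median of -2.88. The other 7 did not pass the filter on low values. As 7 of the 13 passed only with the sorted libraries, the filter in part sets this count and median. Ccl3 and Ccl4, chemokines of activated microglia, were high in sorted cells. Ccl3 was at 0, 11.6, 0 and 0 FPKM in LCM_GFP, against 85.03, 65.5 and 104 FPKM in FACS_GFP, and fell (limma adjusted p = 0.00388). Ccl4 was at 1.76, 29.0, 0 and 0 FPKM in LCM_GFP, against 48.4, 34.3 and 62.7 FPKM in FACS_GFP, and fell too (adjusted p = 0.0322). For both, laser-captured library 2 was the highest of its group and still below the sorted libraries. The call of Ccl4 ended with median ratio and microglial scaling (adjusted p = 0.0618 and 0.122) but not with quantile normalization (0.0455). Bcl2a1b, a survival gene with near-identical copies whose reads may have been split, averaged 13.5 ± 9.79 FPKM in LCM_GFP and 263 ± 59.7 FPKM in FACS_GFP and fell by 4.56 ± 0.72 (adjusted p = 0.00276). Il1a, at 14.3 ± 10.6 FPKM in LCM_GFP and 46.5 ± 5.25 FPKM in FACS_GFP, did not pass (-2.18, adjusted p = 0.0968). Sod2, named after its values were seen, went the other way, with a log2 change of 1.24 that did not pass (adjusted p = 0.0570). It ranged from 4.02 to 9.08 FPKM in LCM_GFP and from 1.75 to 2.32 FPKM in FACS_GFP. Under the microglial scaling the medians were -0.28 for receptors and ligands, 0.27 for adaptors, -0.10 for the kinases, 0.23 for the brakes and -2.05 for the targets, whose tested genes the filter in part chose, against 0.79 for all genes.

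**Figure D5:**
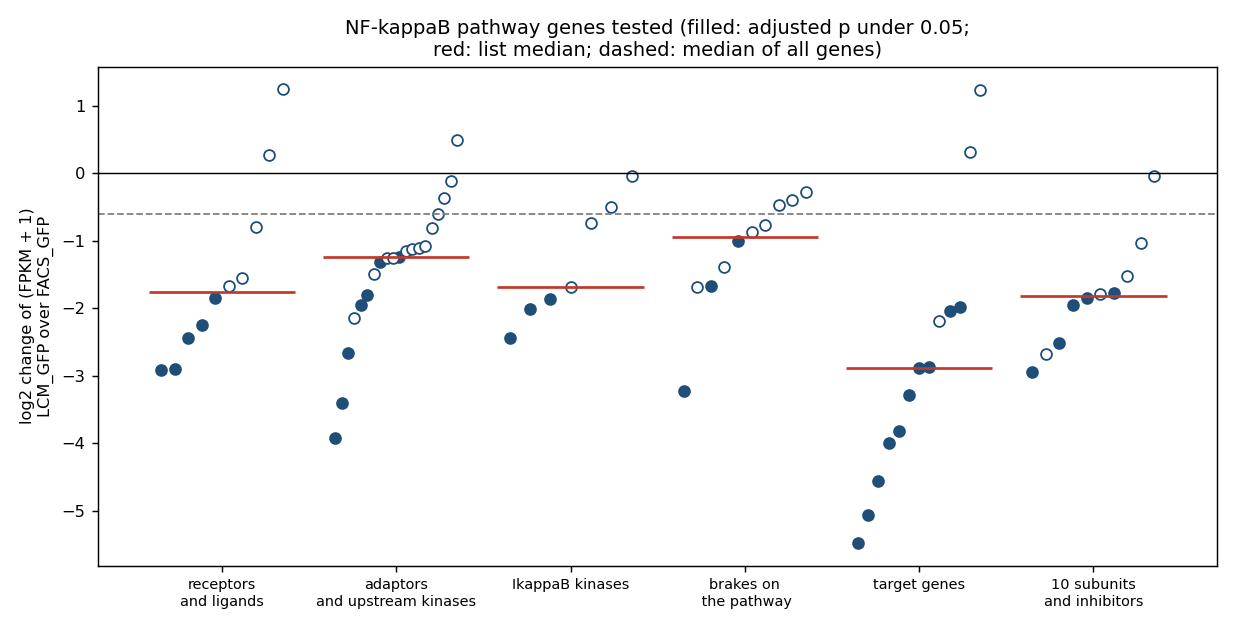
Log2 change in LCM_GFP over FACS_GFP of each tested gene of the 5 pathway lists and of the 10 family genes; filled points have an adjusted p under 0.05, red bars are list medians and the dashed line is the median of all genes. All 6 list medians lie below the median of all genes, and 7 of the 13 target genes plotted passed the filter only with the sorted libraries.

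Relative to FACS_WT, 30 of 62 tested pathway genes fell in LCM_GFP and none rose: 6 of 10 receptors and ligands, 8 of 20 adaptors and upstream kinases, 2 of 7 IkappaB kinases, 3 of 10 brakes and 11 of 15 targets. Of all genes, 19.1% fell. Of the 15 targets, 9 passed the filter only with the sorted libraries. Without any 1 FACS_WT library 6 or 7 pathway genes were called, with 8.58% to 9.14% of all genes called. With labelled sex as a covariate the fit rests on LCM_GFP library 2, the only male of its group, so its calls are not given. Between FACS_GFP and FACS_WT, limma called none of 62 genes, 10 had an unadjusted p under 0.05, and the list medians lay between -0.32 and 0.19.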

How the data were processed

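RNA of 10 mouse brainstem microglia libraries in 3 groups was analysed. Per the labels' protocols, cDNA was made and amplified by the Ovation method and then built into Illumina libraries. The submitters' processing notes name Cufflinks 2.0.2, Bowtie2 2.0.0, TopHat2 2.0.4, CASAVA 1.8.2 and build mm9. The deposited expression table holds FPKM, fragments scaled to transcript length and library total, with 1 column for each library, per the file headers. The annotation, any scaling between libraries and the strand setting of counting are not given in the sources used here. A deposited comparison table, per the file headers in Cuffdiff layout, holds the authors' log2 fold change, p-value and q-value for each pair of groups. Its loci for Nfkb2 and Nfkbib are wider than the genes.

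Each pair of groups was fitted alone, without the third group. The fit took 1 variance per gene over both groups, though the laser-captured libraries spread far more than the sorted ones. A gene was tested if it reached 1 FPKM in 3 or more libraries of the pair. The test was limma 3.58.1 (R 4.3.3, with statmod 1.5.0, trend and robust estimation) on log2 of FPKM plus a pseudocount of 1, and p-values were adjusted over all genes tested, at a threshold of 0.05. A run of the fits on simulated data had to recover the direction of set changes, and error rates from it are not given. Python 3.11.15 with pandas 2.3.3, numpy 2.4.6, scipy 1.17.1 and matplotlib 3.10.9 did the rest. Steps between low FPKM values gave relative depths of 0.983 to 1.34 for sorted libraries and no clear step for laser-captured ones, so fragment counts were not recovered and no counting intervals are given. The sums of FPKM were 393949 to 632854 per library. Of all genes listed, 13661 were at 0 in every library, and genes at 0 are described only as listed at 0.

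Named genes are the 10 family genes, up to 4 members of each pathway list by mean FPKM, and the 3 genes most like Nfkbia and Rela, leaving out predicted genes, small RNAs and family members. The members and lists were chosen with earlier results of these data known. Alternatives were other pseudocounts, filters, scalings, fits and covariates, and leaving out libraries.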

Additional observations from a re-analysis of the deposited data

Results flagged for a closer look

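Within the 4 laser-captured libraries, 3 of the family genes had a library far above the other 3 by a gap test on the range, among 11 groups of 4 values looked at. Nfkb2 was at 3.899 FPKM in library 2, with the other 3 between 0 and 0.430 FPKM. Rel was at 54.97 FPKM in library 3, with the others between 4.88 and 7.93 FPKM. Nfkbid was at 3.595 FPKM in the same library 3, with the others between 0.0131 and 0.543 FPKM. For normally distributed values, chance gives such a mark in about 1 of 20 groups. On the log2(FPKM + 1) scale of the tests the gap was 0.775 of the range for Nfkb2, 0.814 for Rel and 0.722 for Nfkbid, under the limit of the gap test, so none of the 3 is marked on that scale. Library 3 is also one of the pair with embryonic globin RNA, and the part of that in the Rel and Nfkbid values was not tested.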

How the results depend on the processing

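The count of family genes called in LCM_GFP over FACS_GFP was 5 in the main fit, with 32.1% of all genes called. It was 3 with a pseudocount of 0.1 (29.8% of all genes) and 2 without a filter on low values (17.6%). It was 1 with median ratio scaling (24%), 1 with quantile normalization (28.1%) and 0 with scaling to the microglia list (21.5%). With labelled sex as a covariate it was 3 (27.4%), and with 1 library left out 0 to 5 (8.21% to 41.7%). A pseudocount of 5 gave 6 (32.2%), libraries 2 and 4 only also 6 (43.2%), and all 3 groups in one fit 7 (44.3%). The count in LCM_GFP over FACS_WT, also 5, was 2 with median ratio scaling, 1 with scaling to the microglia list and 8 with all 3 groups in one fit. It was 0 to 7 with 1 library left out. Of all genes, 31.4% were called in the main fit there. The shares were 23.7%, 23.6% and 43.8% in those 3 settings, and 8.58% to 40.3% with 1 library left out. Pathway genes called, 28 and 30, were 16 and 17 with median ratio scaling and 7 and 9 with scaling to the microglia list. With 1 library left out they were 4 to 32 and 6 to 33. Between FACS_GFP and FACS_WT both counts were 0 under every setting run. Over all genes, calls in LCM_GFP over FACS_GFP were 1681 higher and 2624 lower, against 1863 and 1357 with median ratio scaling, 1757 and 2004 with quantile normalization and 2339 and 539 with scaling to the microglia list. The causes were not tested.

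Signs turned for Rela in both laser comparisons with scaling to the microglia list (0.063 and 0.071). For Nfkbib in LCM_GFP over FACS_GFP the change was 0.50 with median ratio scaling, 0.21 with quantile normalization, 1.60 with the microglia list, 0.0042 with sex, 0.51 with libraries 2 and 4 only and -0.29 to 0.23 with 1 library left out. In LCM_GFP over FACS_WT it was 0.35, 0.017, 1.63, 0.57, 0.36 and -0.44 to 0.082, where the 0.57 with sex is library 2 alone against FACS_WT. In FACS_GFP over FACS_WT the microglia list gave 0.10 for Nfkb1, 0.011 for Rela, 0.033 for Nfkbib and 0.083 for Nfkbiz, and with 1 library left out Nfkbiz was -0.23 to 0.094. The Nfkbia to Rela difference turned with Nfkb1 in place of Rela, to 0.89 in LCM_GFP over FACS_GFP and 0.65 in LCM_GFP over FACS_WT. With 1 library left out it was -1.19 to 0.95, -1.34 to 0.80 and, in FACS_GFP over FACS_WT, -0.42 to 0.071. Over all alternatives of single genes, 416 kept direction and side of the threshold, 85 lost and 26 gained a call, and 21 changed sign.

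With the replicate block, 4 family genes were called in LCM_GFP over FACS_GFP (Nfkb1, Relb, Nfkbia and Nfkbiz, of which Nfkbiz alone was called without it), 6 in LCM_GFP over FACS_WT (these 4, Nfkb2 and Nfkbie) and 0 in FACS_GFP over FACS_WT. Of all genes, 27.7%, 26.8% and 0.16% were called with that block in these comparisons. The samples share only a number: the deviations of same-numbered libraries correlated at -0.037 to 0.107. Precision was limited by the 3 or 4 libraries of a group and by the spread of the laser-captured ones.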
